A study of Mus with 2 samples.

Results

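The genes described here make cholesterol, move it inside the cell or take it out of the cell. They were chosen by symbol: 32 of the 32285 genes in the count matrices, all of which were found. There are 18 enzyme genes, 7 of them from acetyl-CoA to farnesyl pyrophosphate (Acat2, Hmgcs1, Mvk, Pmvk, Mvd, Idi1, Fdps) and 11 from squalene synthesis to cholesterol (Fdft1, Sqle, Lss, Cyp51, Tm7sf2, Msmo1, Nsdhl, Hsd17b7, Ebp, Sc5d, Dhcr7). Another 5 genes sense sterol or regulate the enzymes (Insig1, Insig2, Srebf1, Srebf2, Scap), 4 carry or store cholesterol (Stard4, Npc1, Npc2, Soat1), and 5 encode LXR receptors or act in sterol efflux and uptake control (Nr1h2, Nr1h3, Abca1, Abcg1, Mylip).

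Cells hold their cholesterol level through a pair of opposing transcription factor systems. When sterol is low in the endoplasmic reticulum, the escort protein Scap carries SREBP2, the product of Srebf2, to the Golgi, where it is cleaved and released to switch on the genes of cholesterol synthesis and uptake. When sterol is plentiful, the Insig proteins hold Scap back, and oxysterols activate the LXR receptors (Nr1h2 and Nr1h3), which switch on the exporters Abca1 and Abcg1, the ubiquitin ligase Mylip that limits lipoprotein uptake, and Srebf1. In bone marrow, sterol export through Abca1 and Abcg1 is known for restraining the proliferation of stem and progenitor cells. To set these systems side by side, 21 genes were taken as SREBP2-type (the 18 enzymes with Insig1, Srebf2 and Stard4) and 4 as LXR-type (Abca1, Abcg1, Mylip and Srebf1).

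The study measured hindlimb bone marrow cells of mice in a ground and a running group, each with 1 droplet single-cell library, and asks how the marrow of running mice differs from that of ground mice. Neither the strain, age, sex and number of the mice, nor the running regimen or what ground stands for is given in the labels, and no genotype or agent is named. The ground matrix held 9162 barcodes with 85014860 unique molecular identifiers (UMIs, each counting 1 captured transcript) and the running matrix 9473 with 79990530. After filtering, 8666 ground cells (median 5938 UMIs) and 9080 running cells (median 5145.5 UMIs) remained, and 24 cell barcodes occurred in both libraries. The cells formed 34 clusters and 16 marker-defined classes, of which 14 had at least 50 cells in each library and were compared.

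Levels are UMIs of a gene per 1000000 UMIs of the same class and library (CPM), given for ground first and running second. A difference is the log2 ratio of CPM, running over ground, for genes with at least 50 UMIs in the class over both libraries. Since each group had a single library, differences had no replicate check and were not tested, and each interval is a 95% interval that covers counting error only. Running cannot be told apart from anything else that differed between the preparations of the libraries. A gene is counted as higher or lower where the ratio reached 1.5-fold. Each such count is set beside the share of all genes measured in that class that passed the same fold. For counts under other weightings, minimums, folds or clusterings no such share is given.

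The sterol genes were used unevenly across marrow cells. The 21 SREBP2-type genes summed to 1229 and 1418 CPM in plasmacytoid dendritic-like cells (interferon-producing cells led here by Siglech), the highest sums of the 14 classes in both libraries. Mature neutrophil-like cells had the lowest sums, with 229.8 and 163 CPM. Their precursors held more, with 539 and 485 CPM in granulocyte-monocyte progenitor-like cells and 339.8 and 304 CPM in immature neutrophil-like cells. As a share of all UMIs, the sum was thus lower at each later class of this series in both libraries. Granule, mitochondrial, haemoglobin and immunoglobulin genes took 10.3% and 10.4% of all UMIs in the progenitors. They took 46.0% and 44.5% in immature and 31.1% and 30.6% in mature neutrophil-like cells. The step from progenitors to immature cells cannot be told apart from this difference in the total.

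Single enzymes departed from that order. Hmgcs1, which makes HMG-CoA at the head of the pathway, stood at 139 and 165 CPM in plasmacytoid dendritic-like cells and at 8.39 and 8.85 CPM in erythroid-like cells. Pmvk, the phosphomevalonate kinase, was higher in erythroid-like than in mature neutrophil-like cells, at 48.9 and 47.6 CPM against 19.4 and 11.8 CPM. Fdps, the farnesyl pyrophosphate synthase, was at 197 and 157 CPM in granulocyte-monocyte progenitor-like cells and at 6.87 and 4.22 CPM in mature neutrophil-like cells. Sc5d, a late desaturase of the sterol ring, was the reverse, at 16.9 and 15.8 CPM in the progenitors and 50.1 and 28.4 CPM in mature neutrophil-like cells. Hsd17b7, another late enzyme, had 63.2% of its ground UMIs and 48.9% of its running UMIs in immature neutrophil-like cells.

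Transport and efflux genes marked other cells. Npc2, the soluble protein that passes cholesterol out of late endosomes, reached 956 and 1312 CPM in conventional dendritic-like cells and 804 and 938 CPM in monocyte-like cells. Its membrane partner Npc1 was highest in plasmacytoid dendritic-like cells, at 179 and 178 CPM. Soat1, which esterifies cholesterol for storage, was highest in monocyte-like cells (175 and 181 CPM) and lowest in erythroid-like cells (3.58 and 1.87 CPM).

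The LXR receptor genes had contrasting patterns. Nr1h3 stood at 279.6 and 183 CPM in macrophage-like cells and 18.2 and 22.1 CPM in conventional dendritic-like cells, and had under 50 UMIs in each of the other 12 compared classes. Nr1h2 was spread evenly, from 33.0 CPM in ground and 30.5 CPM in running to 56.7 CPM in ground and 70.6 CPM in running as the lowest and highest classes. Abca1, the exporter that loads lipid-poor apolipoprotein, was at 315 and 259.6 CPM in macrophage-like cells and 83.5 and 51.0 CPM in B cell-like cells. Mylip was highest in lymphoid classes, with 183 and 124 CPM in NK cell-like cells and 162 and 131 CPM in B cell-like cells.

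**Figure D1:**
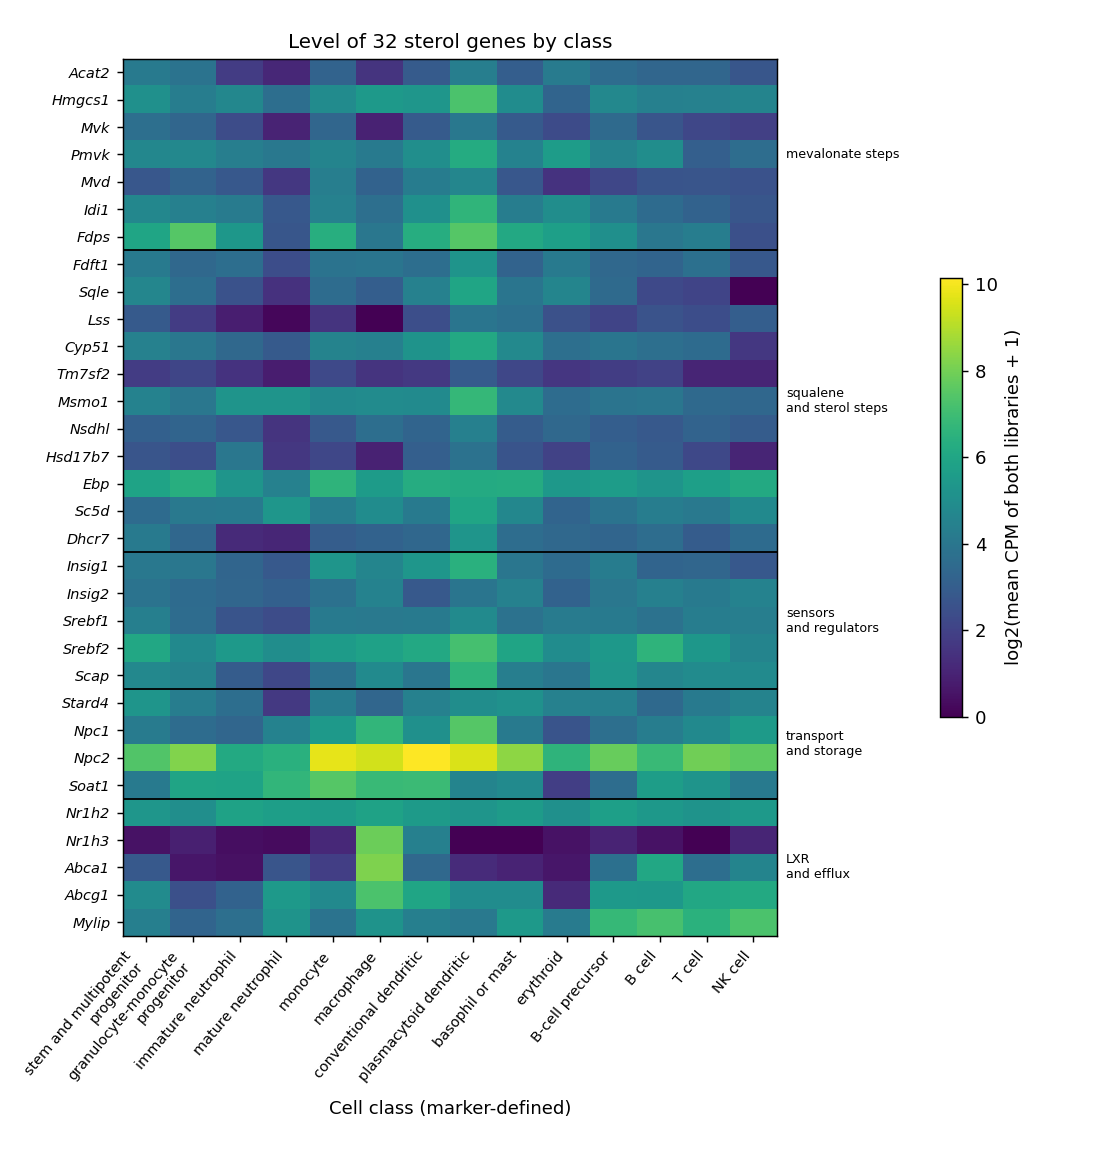
Level of each of the 32 genes (vertical axis, grouped by role) in the 14 compared cell classes (horizontal axis), as colour for log2 of the mean CPM of both libraries plus 1. Over the synthesis genes the plasmacytoid dendritic column is the brightest (Hmgcs1 at 139 and 165 CPM) and the mature neutrophil column is dark, while Nr1h3 and Abca1 are brightest in macrophage-like cells.

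Summed over all cells, the sterol genes differed little between the libraries. Of the 21 SREBP2-type genes none reached 1.5-fold, where 6.53% of 13738 measured genes were higher and 1.87% of 13738 lower. Their median log2 ratio was -0.07, beside 0.08 for all measured genes, and their sum was 405 and 377 CPM (-0.10, interval -0.13 to -0.08).

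Among the 10 members with most UMIs, Fdps had the ratio furthest from 0, at 66.7 and 53.1 CPM (-0.33, interval -0.39 to -0.27). Mylip followed, at 25 and 29.8 CPM (0.25, interval 0.17 to 0.34). Msmo1, the sterol methyl oxidase, was at 29.2 and 26.1 CPM (-0.16) and Npc2 at 279 and 307 CPM (0.14). The other 6 lay closer to 0. Of these, Nr1h2 was at 47.2 and 44.1 CPM (-0.10), Ebp, the sterol isomerase, at 55.4 and 52.7 CPM (-0.07) and Pmvk at 26.2 and 25 CPM (-0.07). Srebf2 was at 44.0 and 41.9 CPM (-0.07), Soat1 at 75.6 and 74.0 CPM (-0.03) and Hmgcs1 at 23.4 and 23.5 CPM (0.00), so the regulator and the first dedicated enzyme were level in the whole marrow.

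Some differences over all cells went with the make-up of the libraries. Nr1h3 was the only member past 1.5-fold, at 1.25 and 2.23 CPM (0.83, interval 0.47 to 1.2), and its log2 ratio was 0.03 when both libraries were given the class proportions of ground. Macrophage-like cells, where Nr1h3 is high, were 0.727% of ground cells and 2.41% of running cells. With the same weighting the log2 ratio of Abcg1 went from 0.41 to 0.20, that of Mylip from 0.25 to 0.08 and that of Abca1 from 0.02 to -0.45. Fdps was then at -0.20, outside its counting interval above, beside Msmo1 at -0.21. The libraries were therefore compared within classes.

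Mature neutrophil-like cells had several synthesis genes lower and Abcg1 and Mylip higher in running. Of the 21 SREBP2-type genes 12 had at least 50 UMIs, of which 7 were at least 1.5-fold lower and none higher, where 4.31% of 8004 measured genes were lower and 8.82% of 8004 higher. The median log2 ratio of these 12 was -0.71, beside 0.10 for all measured genes. The sum of the 21 was 229.8 and 163 CPM (-0.49, interval -0.58 to -0.41).

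Among the mevalonate steps, Idi1 (chr13:8885606-8892396, GRCm38.p6), which isomerises isopentenyl pyrophosphate, was at 9.01 and 2.87 CPM on 101 and 34 UMIs (-1.65, interval -2.26 to -1.08). Pmvk was at 19.4 and 11.8 CPM (-0.71, interval -1.03 to -0.40) and Fdps at 6.87 and 4.22 CPM (-0.70, interval -1.25 to -0.17). Hmgcs1 was at 12.3 and 10.9 CPM (-0.18, interval -0.53 to 0.18), so the steps were not lower by one common amount.

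Among the squalene and sterol steps, Fdft1, the squalene synthase, was at 5.89 and 2.62 CPM (-1.17, interval -1.84 to -0.53). Cyp51 (chr5:4080674-4104697), the lanosterol demethylase, was at 8.39 and 4.47 CPM (-0.91, interval -1.42 to -0.41). Sc5d (chr9:42251592-42264300) was at 50.1 and 28.4 CPM (-0.82, interval -1.02 to -0.62), and its log2 ratio was -0.22 when both libraries were given the cluster proportions of ground. Ebp went the other way from these enzymes, at 18.9 and 23.1 CPM (0.29, interval 0.03 to 0.56).

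Among the regulators and carriers, Stard4 and Srebf1 were lower and Srebf2 did not reach 1.5-fold. Srebf2 was at 35.4 and 24.7 CPM (-0.52, interval -0.75 to -0.30) and Srebf1, which encodes the related factor SREBP1, at 5.09 and 3.21 CPM (-0.67, interval -1.30 to -0.05). Stard4, which carries sterol between membranes, was at 3.12 and 1.35 CPM on 35 and 16 UMIs (-1.21, interval -2.16 to -0.32). The other transport and storage genes were level: Npc2 at 87.9 and 85.4 CPM (-0.04), Soat1 at 99.1 and 105 CPM (0.09) and Npc1 at 21.0 and 21.9 CPM (0.06).

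The efflux genes split. Abcg1 (chr17:31057694-31117984), which exports cholesterol to lipoprotein particles, was at 32.6 and 55.6 CPM on 365 and 658 UMIs (0.77, interval 0.58 to 0.96). Mylip (chr13:45389742-45411940) was at 27.0 and 46.2 CPM on 302 and 547 UMIs (0.78, interval 0.57 to 0.98). Abca1 (chr4:53030789-53159988) went the other way, at 8.66 and 2.28 CPM on 97 and 27 UMIs (-1.93, interval -2.60 to -1.30). The LXR-type genes thus comprised 2 that were at least 1.5-fold higher and 2, Abca1 and Srebf1, at least 1.5-fold lower, where 8.82% of 8004 measured genes were higher and 4.31% of 8004 lower. Their sum was 73.3 and 107 CPM (0.55, interval 0.42 to 0.68). The count depended on the processing: with the cluster proportions of ground Srebf1 was at -0.018 and only Abca1 was lower, and with the mean of CPM over cells Mylip was at 0.55, only Abcg1 was higher and the sum had a log2 ratio of 0.33. Markers of mature neutrophils summed to 59081 and 49334 CPM in this class and markers of immature neutrophils to 17820 and 17223 CPM, and their part in the result was not tested. A sum over cells does not show whether fewer cells held a transcript or each held less of it. The cells with a transcript are not counted here.

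**Figure D2:**
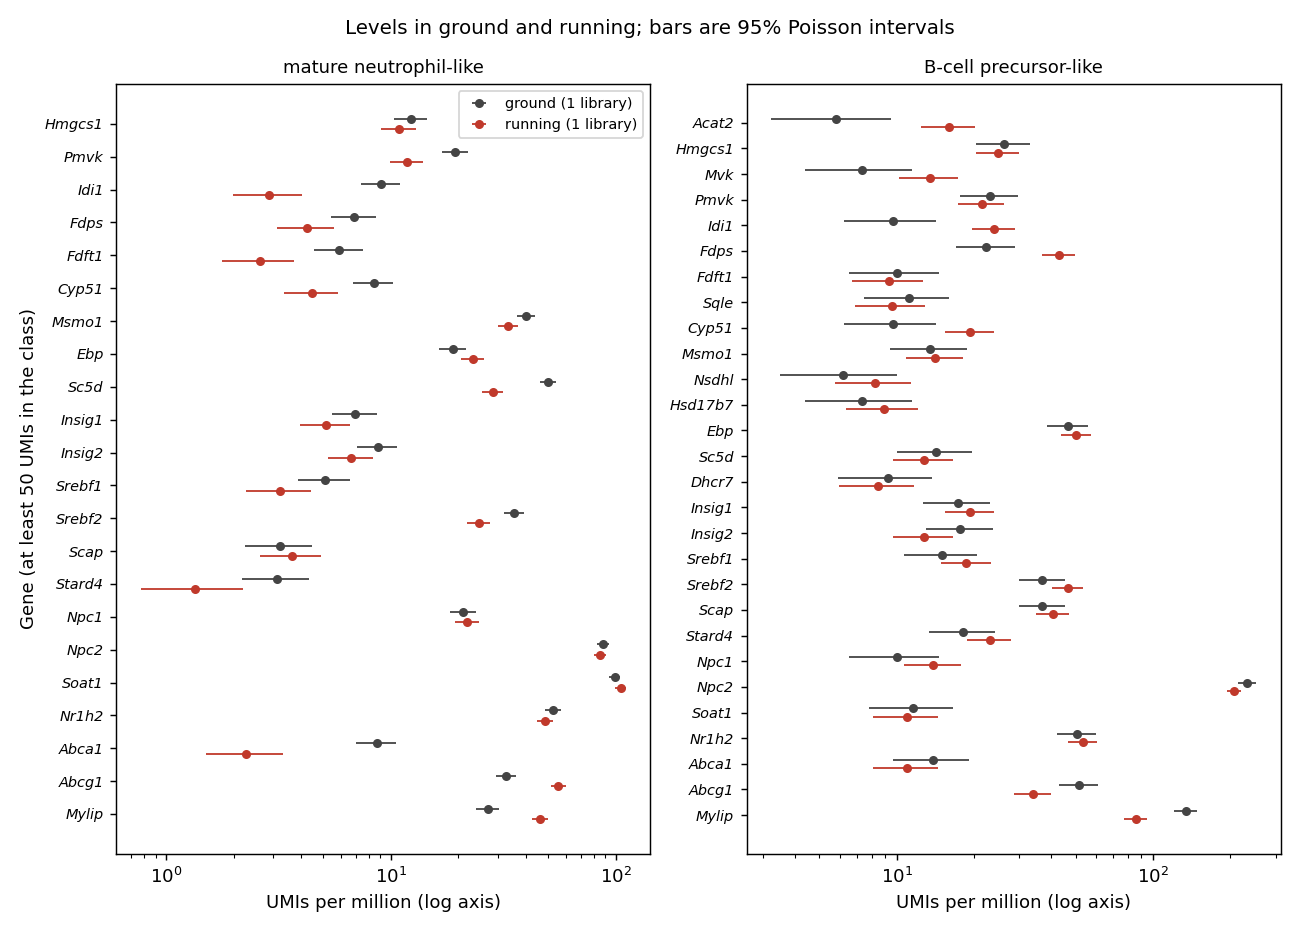
CPM on a log axis in the ground library (grey) and the running library (red) for each gene with at least 50 UMIs in mature neutrophil-like cells (left) and in B-cell precursor-like cells (right), with 95% Poisson intervals as bars. On the left Idi1 sits lower in running (9.01 and 2.87 CPM) with Abcg1 and Mylip higher, and on the right Idi1 sits higher (9.64 and 24 CPM) with Abcg1 and Mylip lower.

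The libraries filled the mature neutrophil-like clusters very unevenly, so the genes were compared within clusters too. Cluster 5, led by Igfbp6, Ifitm1 and Wfdc17, had 1000 ground and 42 running cells, and cluster 20, led by Jaml and Cstdc4, had 54 ground and 1313 running cells. The cluster best shared by the libraries was cluster 19, led by Retnlg, Mmp8 and Mmp9, with 690 ground and 908 running cells.

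In cluster 19 several synthesis genes were again lower. Of 11 SREBP2-type genes with at least 50 UMIs, 7 were at least 1.5-fold lower and none higher, where 3.4% of 5946 measured genes were lower and 8.51% of 5946 higher. Their median log2 ratio was -0.93, beside 0.09 for all measured genes, and the sum of the 21 was 303 and 191 CPM (-0.67, interval -0.79 to -0.54). Idi1 was at 18.2 and 5.45 CPM (-1.74), Cyp51 at 15.4 and 6.54 CPM (-1.24), Fdps at 11.2 and 5.23 CPM (-1.10) and Srebf2 at 58.5 and 35.1 CPM (-0.74). Abcg1 was at 10.1 and 23.3 CPM (1.21, interval 0.69 to 1.76) and Mylip at 13.6 and 29.2 CPM (1.11, interval 0.65 to 1.58). Both groups of genes thus differed within a cluster that each library filled.

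In the other mature clusters with at least 50 cells per library, the LXR-type sum was higher in running. Abcg1 and Mylip were the only 2 LXR-type genes with at least 50 UMIs there. The intervals of both covered 0 in cluster 20, as did that of Mylip in cluster 24. The LXR-type sum had a log2 ratio of 1.07 (interval 0.37 to 1.71) in cluster 17, on 163 and 23 UMIs. It had 0.88 (0.14 to 1.72) in cluster 20, on 15 and 557 UMIs, and 0.74 (0.37 to 1.12) in cluster 24, on 71 and 412 UMIs. The SREBP2-type sum had -0.47 (-1.10 to 0.09), -0.23 (-0.73 to 0.30) and -0.21 (-0.51 to 0.10), so a difference in this sum was not detectable there at this depth. Single genes of the list did have intervals without 0. In cluster 24 Msmo1 was at -1.19 (-2.03 to -0.32) and Ebp at 1.07 (0.11 to 2.19). In cluster 17 Srebf2 was at -2.64 (-7.96 to -0.13) on 93 and 1 UMIs.

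With the cluster proportions of ground given to both libraries, a setting chosen after seeing the data, the 1000 ground and 42 running cells of cluster 5 were brought to the same share. The SREBP2-type sum of the class then had a log2 ratio of -0.45 and the LXR-type sum 0.63. In this setting 7 SREBP2-type genes were at least 1.5-fold lower, but not all were those above. No share of all measured genes is given for this setting, so the count cannot be set against one. Of the 7, 5 (Pmvk, Idi1, Fdps, Fdft1 and Cyp51) were in both sets, and Insig1 (-1.46) and Srebf2 (-1.15) came in. Sc5d (-0.22) and Stard4, which was left with under 50 weighted UMIs, went out. Mvd (0.61) was the 1 gene at least 1.5-fold higher, and it passed the minimum only through the weighting, on 25 and 38.5 weighted UMIs. Unweighted, Mvd had 25 and 23 UMIs, under the minimum, at 2.23 and 1.94 CPM. Msmo1 was at -0.035 and Hmgcs1 at 0.19 with the weighting. These values rest on few running cells of cluster 5.

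Abca1 did not share the pattern of Abcg1. Of its 97 ground UMIs in mature neutrophil-like cells, 82 lay in cluster 5, at 27.7 CPM, where the 42 running cells had 0, a count that allows up to 26.7 CPM. In cluster 24 it was at 15.6 and 8.99 CPM on 9 and 18 UMIs. The lower Abca1 of the class therefore rests largely on a cluster that held few running cells.

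In earlier cells of the lineage the SREBP2-type ratios lay closer to 0. In immature neutrophil-like cells none of 20 measured SREBP2-type genes reached 1.5-fold, where 1.52% of 9664 measured genes were lower and 4.22% of 9664 higher, and the sum was 339.8 and 304 CPM (-0.16, interval -0.21 to -0.11). Fdps was at 46.5 and 33.4 CPM (-0.48, interval -0.63 to -0.33), Pmvk at 21.7 and 16.8 CPM (-0.36, interval -0.58 to -0.15) and Sc5d at 18.6 and 15.1 CPM (-0.30, interval -0.53 to -0.08). Srebf2 was at 42.0 and 44.0 CPM here (0.07, interval -0.07 to 0.21).

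Within the immature class the clusters were not alike. In cluster 0, led by Ltf and Mmp8 with 733 ground and 596 running cells, the SREBP2-type sum was 404 and 308 CPM (-0.39, interval -0.50 to -0.29) and the LXR-type sum 23.5 and 37.9 CPM (0.69, interval 0.35 to 1.04). Hsd17b7 was at 20.5 and 9.42 CPM (-1.12), Fdps at 30.9 and 15.2 CPM (-1.02) and Mylip at 10.2 and 20.7 CPM (1.01) in that cluster. In cluster 1, led by Ltf and Zmpste24 with 667 ground and 691 running cells, the sums had log2 ratios of -0.07 (interval -0.15 to 0.02) and -0.29 (-0.65 to 0.06). Granulocyte-monocyte progenitor-like cells had an SREBP2-type sum of 539 and 485 CPM (-0.15, interval -0.22 to -0.09), with Fdps at 197 and 157 CPM (-0.33, interval -0.44 to -0.22), Scap at 25 and 19.8 CPM (-0.34, interval -0.67 to -0.01), Insig1 at 16.9 and 13.5 CPM (-0.32, interval -0.72 to 0.08) and Mylip at 7.64 and 9.43 CPM (0.30, interval -0.23 to 0.83).

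**Figure D3:**
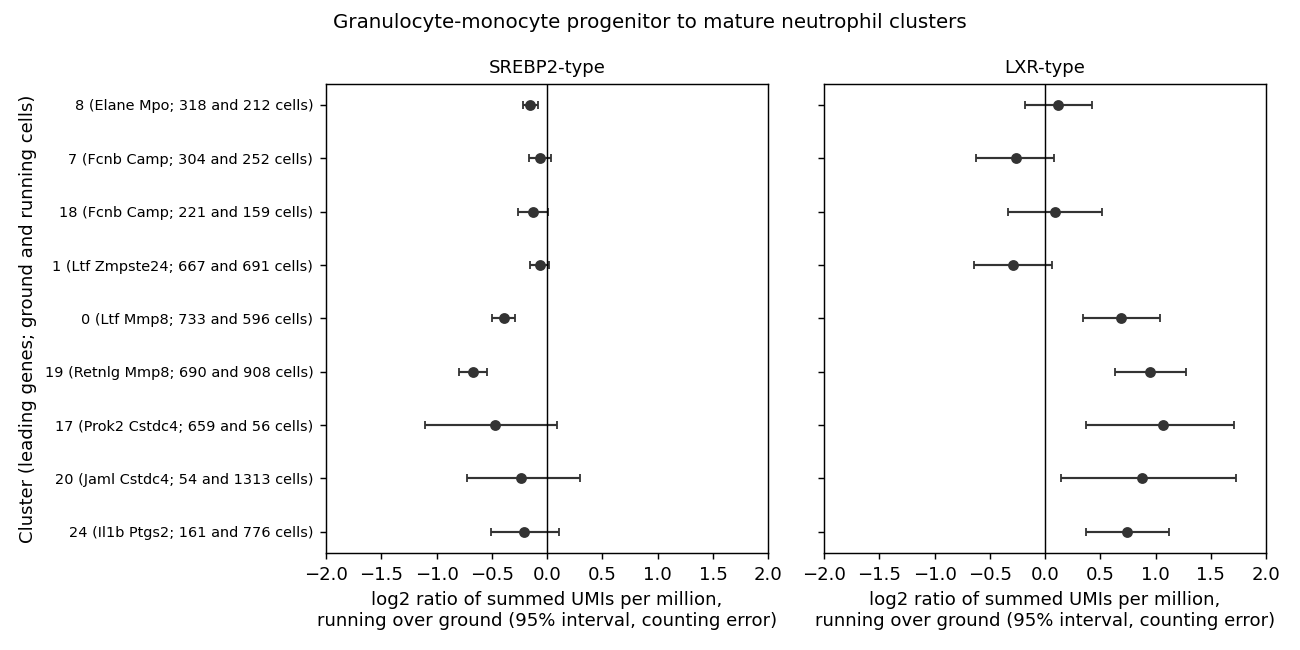
Log2 ratio (running over ground, horizontal axis) of the summed SREBP2-type genes (left) and LXR-type genes (right) in clusters from granulocyte-monocyte progenitor-like (8) through immature (7, 18, 1, 0) to mature neutrophil-like (19, 17, 20, 24), with 95% intervals for counting error as bars. The LXR-type points lie above 0 from cluster 0 (0.69) to cluster 24 (0.74), and the lowest SREBP2-type point is that of cluster 19 (-0.67).

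In B-cell precursor-like cells the ratios had the opposite sign. Of 18 SREBP2-type genes with at least 50 UMIs, 5 were at least 1.5-fold higher in running and none lower, where 2.75% of 8626 measured genes were higher and 5.25% of 8626 lower. Their median log2 ratio was 0.22, beside -0.07 for all measured genes, and the sum of the 21 was 304 and 382 CPM (0.33, interval 0.20 to 0.45).

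Most of the higher genes were in the mevalonate steps, 4 of 6 measured. Acat2 (chr17:12943042-12960725), a thiolase that makes acetoacetyl-CoA, was at 5.78 and 16 CPM on 15 and 70 UMIs (1.47, interval 0.65 to 2.38). Idi1 was at 9.64 and 24 CPM on 25 and 105 UMIs (1.31, interval 0.67 to 2.01). Fdps (chr3:89093588-89101967) was at 22.4 and 42.9 CPM (0.94, interval 0.51 to 1.39) and Mvk, the mevalonate kinase, at 7.32 and 13.5 CPM (0.88, interval 0.11 to 1.71). Among the later enzymes Cyp51 was the one past 1.5-fold, at 9.64 and 19.4 CPM (1.01, interval 0.35 to 1.71). Hmgcs1 was at 26.2 and 24.9 CPM (-0.08), Sqle, the squalene epoxidase, at 11.2 and 9.58 CPM (-0.22) and Srebf2 at 37.0 and 46.5 CPM (0.33, interval -0.03 to 0.70), so the pathway was not higher throughout.

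Mylip and Abcg1 were lower in the same cells. Mylip was at 134 and 85.5 CPM (-0.64, interval -0.86 to -0.43) and Abcg1 at 51.3 and 34.0 CPM (-0.59, interval -0.94 to -0.24). Abca1 was at 13.9 and 11 CPM (-0.34, interval -1.0 to 0.32) and Srebf1, with a ratio above 0, at 15 and 18.7 CPM (0.32, interval -0.25 to 0.90). The sum of the 4 was 214 and 149 CPM (-0.52, interval -0.69 to -0.35).

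The B-cell precursor-like cells comprised a pair of clusters that differed in these values. Cluster 11, led by Vpreb1, Igll1 and Dntt, made up 30.5% of the ground and 41.3% of the running cells of the class and had median UMIs per cell of 7917 and 10093. Cluster 14, led by Rag1, had medians of 2774 and 2776. In cluster 11, 5 of 14 measured SREBP2-type genes were at least 1.5-fold higher and none lower, where 2.65% of 7654 measured genes were higher and 5.68% of 7654 lower, and the sum was 339 and 421 CPM (0.31, interval 0.17 to 0.46). These genes were Mvk (1.24), Acat2 (1.2), Idi1 (1.12), Fdps (1.07) and Cyp51 (0.92), the same as in the whole class. In cluster 14 the SREBP2-type sum was 248 and 254 CPM (0.03, interval -0.22 to 0.29). Mylip was at 59.1 and 35.3 CPM in cluster 11 (-0.75, interval -1.15 to -0.34) and at 255 and 248 CPM in cluster 14 (-0.04, interval -0.30 to 0.21). When both libraries were given the cluster proportions of ground, a setting chosen after seeing the data, the class had log2 ratios of 0.26 for the SREBP2-type sum and -0.29 for the LXR-type sum. Cell cycle genes summed to 4004 and 4126 CPM in the class and B cell markers to 9449 and 7524 CPM, and their part was not tested.

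Stem and multipotent progenitor-like cells, 98 in ground and 108 in running, had ratios of the same signs as the B-cell precursors. Of 16 measured SREBP2-type genes 4 were at least 1.5-fold higher and 1, Sc5d, lower, where 4.42% of 8214 measured genes were higher and 3.4% of 8214 lower. The median log2 ratio was 0.30, beside 0.00 for all measured genes, and the sum of the 21 was 441 and 547 CPM (0.31, interval 0.19 to 0.43).

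The 4 higher genes came from early and late steps. Msmo1 was at 13.6 and 30.1 CPM on 31 and 82 UMIs (1.15, interval 0.54 to 1.79). Idi1 was at 17.5 and 33.0 CPM on 40 and 90 UMIs (0.91, interval 0.36 to 1.49). Cyp51 was at 16.2 and 26.4 CPM (0.70, interval 0.11 to 1.32) and Pmvk at 20.1 and 30.4 CPM (0.60, interval 0.06 to 1.15). Fdps, higher in the B-cell precursors, was at 61.3 and 63.5 CPM here (0.05, interval -0.28 to 0.38), and Sc5d was at 13.1 and 8.44 CPM (-0.64, interval -1.49 to 0.19).

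Abcg1 and Mylip were lower in these progenitors. Abcg1 was at 35.0 and 22.7 CPM on 80 and 62 UMIs (-0.62, interval -1.13 to -0.13) and Mylip at 25.4 and 14.3 CPM on 58 and 39 UMIs (-0.83, interval -1.45 to -0.22). Transcripts of other lineages also differed in the class. Mature neutrophil markers summed to 1717 and 851 CPM, granulocyte-monocyte progenitor markers to 4279 and 2997 CPM and megakaryocyte markers to 1377 and 4406 CPM. Cell cycle genes summed to 2303 and 2472 CPM, with Ccnb1 at 56.1 and 83.3 CPM (0.57, interval 0.25 to 0.89) and Ccnb2 at 71.4 and 98.7 CPM (0.47, interval 0.18 to 0.76). The part of these markers and cell cycle genes in the sterol gene ratios was not tested.

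Plasmacytoid dendritic-like cells, where synthesis genes were most abundant, had higher levels of some sterol-ring enzymes in running. Of 17 measured SREBP2-type genes 2 were at least 1.5-fold higher and none lower, where 3.92% of 6328 measured genes were higher and 4.11% of 6328 lower. They were Cyp51, at 48.7 and 88.9 CPM (0.87, interval 0.41 to 1.35), and Nsdhl, a sterol dehydrogenase, at 15.9 and 25.1 CPM on 18 and 39 UMIs (0.66, interval -0.18 to 1.55). The count of higher genes was 1 with clusters at resolution 2. It was 0 at 2-fold and 0 with at least 200 UMIs per gene. Fdps was at 148 and 209 CPM (0.50, interval 0.23 to 0.78), Msmo1 at 92.1 and 124 CPM (0.42, interval 0.07 to 0.78) and Sqle at 52.2 and 69.5 CPM (0.41, interval -0.06 to 0.90). Idi1 was at 99.2 and 97.9 CPM (-0.02) and Srebf2 at 148 and 135 CPM (-0.13), so neither the isomerase nor the regulator was among the higher genes. Cell cycle genes summed to 595 and 745 CPM and monocyte markers to 3473 and 4740 CPM in this class, and their part was not tested.

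Monocyte-like cells, the class with most SREBP2-type UMIs, had small and mostly negative differences in the enzymes. None of the 21 SREBP2-type genes reached 1.5-fold, where 3.11% of 10564 measured genes were higher and 3.46% of 10564 lower. Their median log2 ratio was -0.16, beside -0.01 for all measured genes, and the sum was 529 and 483 CPM (-0.13, interval -0.18 to -0.09). Nsdhl was at 7.2 and 5.18 CPM (-0.47, interval -0.93 to -0.03), Sc5d at 21.2 and 15.7 CPM (-0.44, interval -0.69 to -0.18), Mvd, the decarboxylase of the mevalonate steps, at 22.2 and 16.9 CPM (-0.39, interval -0.64 to -0.15) and Fdps at 91.6 and 71.8 CPM (-0.35, interval -0.47 to -0.23).

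A few transport and efflux genes had ratios above 0 in monocyte-like cells, short of 1.5-fold. Abcg1 was at 23.0 and 31.0 CPM (0.43, interval 0.22 to 0.64), Npc2 at 804 and 938 CPM (0.22, interval 0.19 to 0.26) and Npc1 at 40.9 and 46.7 CPM (0.19, interval 0.03 to 0.35). Insig1, itself an SREBP target, was at 35.3 and 41.1 CPM (0.22, interval 0.05 to 0.39), against the direction of the enzymes. Markers of granulocyte-monocyte progenitors summed to 2936 and 1988 CPM in this class. The cell cycle genes furthest from 0 were Tyms, at 99.7 and 72.0 CPM (-0.47, interval -0.59 to -0.35), Rrm2 (-0.41) and Mcm2 (-0.37). The part of these markers and cell cycle genes was not tested.

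In the B cell-like, T cell-like and NK cell-like classes the LXR-type sums had ratios below 0, short of 1.5-fold. Their sum was 304 and 234 CPM in B cell-like cells (-0.38, interval -0.53 to -0.22), 211 and 157 CPM in T cell-like cells (-0.43, interval -0.69 to -0.17) and 314 and 217 CPM in NK cell-like cells (-0.53, interval -0.96 to -0.10). The SREBP2-type sum had log2 ratios of -0.01 (interval -0.15 to 0.13), 0.09 (-0.12 to 0.30) and 0.22 (-0.22 to 0.67), so no difference in it was detectable at this depth.

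The LXR-type gene furthest from 0 was not the same in each lymphocyte class. In B cell-like cells Abca1 was at 83.5 and 51.0 CPM on 194 and 138 UMIs (-0.71, interval -1.04 to -0.39), Mylip at 162 and 131 CPM (-0.31, interval -0.53 to -0.10) and Abcg1 at 43.1 and 41.0 CPM (-0.07). In T cell-like cells Srebf1 was at 24.2 and 13 CPM on 26 and 24 UMIs (-0.89, interval -1.76 to -0.04), Abcg1 at 80.8 and 51.5 CPM (-0.65, interval -1.09 to -0.21) and Mylip at 94.8 and 80.2 CPM (-0.24, interval -0.61 to 0.14). The synthesis gene Fdps was at 13.9 and 23.8 CPM on 15 and 44 UMIs there (0.77, interval -0.10 to 1.73). In NK cell-like cells Mylip was at 183 and 124 CPM on 52 and 58 UMIs (-0.57, interval -1.14 to -0.00). In cluster 3, the B cell-like cluster with most cells (439 ground and 397 running cells), Abca1 was at 116 and 78.4 CPM (-0.57, interval -0.93 to -0.22). Mature neutrophil markers summed to 1249 and 3313 CPM in B cell-like cells. Without cluster 33, a small B cell-like cluster with neutrophil transcripts (6 ground and 37 running cells), the LXR-type log2 ratio was -0.37, a setting chosen after seeing the data, and with doublets kept it was -0.19. Cell cycle genes summed to 455 and 875 CPM in T cell-like cells and to 607 and 1152 CPM in NK cell-like cells, where Mki67 was at 21.2 and 270.5 CPM (3.68, interval 2.51 to 5.15) and Top2a at 88.2 and 230.0 CPM (1.38, interval 0.74 to 2.07), and their part was not tested.

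In erythroid-like cells the SREBP2-type sum was 379 and 355 CPM (-0.10, interval -0.16 to -0.03). Its log2 ratio was 0.00085 with doublets kept, a change of sign, and -0.32 with the mean of CPM over cells, where 4 of the genes were at least 1.5-fold lower. There 2 of 19 measured genes were at least 1.5-fold higher and none lower, where 5.58% of 9422 measured genes were higher and 3.23% of 9422 lower. They were Dhcr7, a late reductase of the pathway, at 7.16 and 12.2 CPM (0.76, interval 0.35 to 1.19), and Mvk, at 3.11 and 4.85 CPM (0.64, interval -0.00 to 1.31). Npc2 was at 82.5 and 109 CPM (0.40, interval 0.28 to 0.53), Sqle at 26.5 and 20.2 CPM (-0.39, interval -0.65 to -0.14) and Nsdhl at 8.58 and 11.1 CPM (0.38, interval -0.02 to 0.78), so single genes lay on either side of 0. Median UMIs per cell were 8230 and 15136 in this class and cell cycle genes summed to 6665 and 5332 CPM, with Mki67 at 1519 and 1103 CPM (-0.46, interval -0.49 to -0.43) and Pcna at 722 and 531 CPM (-0.44, interval -0.49 to -0.39), and their part was not tested.

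Macrophage-like cells, 63 in ground and 219 in running with medians of 823 and 975 UMIs, had too few counts for the enzymes. No SREBP2-type gene reached 50 UMIs, and the sum of the 21 was 384 and 326 CPM (-0.24, interval -0.72 to 0.28). Nr1h3 was at 279.6 and 183 CPM on 32 and 96 UMIs (-0.61, interval -1.2 to 0.02), Npc2 at 813 and 582 CPM (-0.48, interval -0.82 to -0.13) and Abca1 at 315 and 259.6 CPM (-0.28, interval -0.82 to 0.30). Erythroid markers summed to 19660 and 1103 CPM and immature neutrophil markers to 20884 and 47198 CPM in this class, and their part was not tested.

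Conventional dendritic-like and basophil or mast-like cells add a few values. In conventional dendritic-like cells Npc2 was at 956 and 1312 CPM (0.46, interval 0.35 to 0.56), Abcg1 at 54.5 and 68.4 CPM (0.33, interval -0.13 to 0.79) and the SREBP2-type sum at 596 and 538 CPM (-0.15, interval -0.30 to -0.00), whose log2 ratio was 0.018 with clusters at resolution 2, a change of sign. In basophil or mast-like cells the SREBP2-type sum was 543 and 419 CPM (-0.37, interval -0.58 to -0.17), with Ebp at 86.9 and 62.4 CPM (-0.48, interval -1.01 to 0.06). The LXR-type sum was 104 and 73.5 CPM there (-0.50, interval -0.99 to -0.01), so the sums of both lists had ratios below 0.

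**Figure D4:**
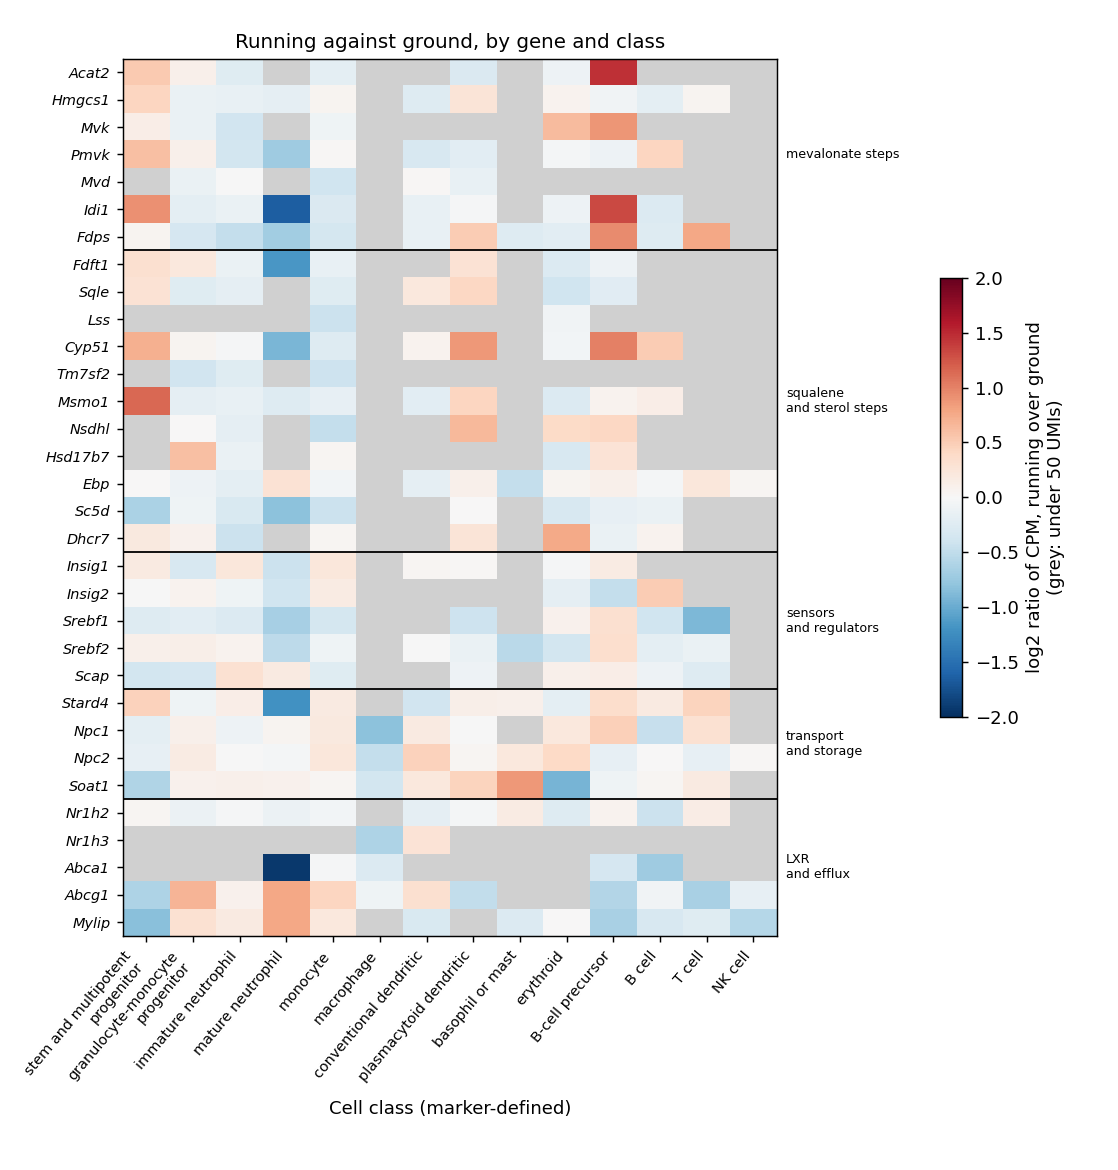
Log2 ratio of CPM (running over ground, as colour, red for higher and blue for lower in running) for each of the 32 genes (vertical axis) in the 14 compared classes (horizontal axis), with genes under 50 UMIs in a class in grey. Idi1, Cyp51 and Fdps are blue in mature neutrophil-like cells (Idi1 -1.65) and red in B-cell precursor-like cells (Idi1 1.31), and Abcg1 and Mylip are the reverse.

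The SREBP2-type genes were then set against the LXR-type genes of the same cells, as SREBP2-type UMIs per LXR-type UMI, a number that does not depend on the total by which levels are scaled. In mature neutrophil-like cells this number was 3.14 and 1.52 in ground and running (log2 ratio -1.04, interval -1.2 to -0.89). In immature neutrophil-like cells it was 13.5 and 11.6 (-0.21, interval -0.40 to -0.02) and in monocyte-like cells 9.18 and 7.62 (-0.27, interval -0.41 to -0.12). Summed over each class, all of these had fewer synthesis transcripts per LXR-type transcript in running. The immature clusters were not alike. Their SREBP2-type and LXR-type sums had log2 ratios of -0.39 and 0.69 in cluster 0 and -0.12 and 0.09 in cluster 18. In cluster 1 they had -0.07 and -0.29, and in cluster 7 -0.07 and -0.27, the other way from the class. In B-cell precursor-like cells the number of SREBP2-type UMIs per LXR-type UMI was 1.42 and 2.56 (0.85, interval 0.64 to 1.05). In stem and multipotent progenitor-like cells it was 4.99 and 9.03 (0.86, interval 0.53 to 1.19) and in plasmacytoid dendritic-like cells 14.5 and 21.8 (0.59, interval 0.16 to 1.02), where this log2 ratio was 0.11 with only cells of at least 1000 UMIs. Its log2 ratio was also above 0 in B cell-like cells (0.37, interval 0.15 to 0.58), T cell-like cells (0.52, interval 0.18 to 0.85) and NK cell-like cells (0.75, interval 0.12 to 1.37). In the remaining compared classes the interval covered 0. The log2 ratio was -0.17 in erythroid-like, -0.27 in granulocyte-monocyte progenitor-like and -0.30 in conventional dendritic-like cells. It was -0.15 in macrophage-like and 0.13 in basophil or mast-like cells. The differences between classes were not tested, since all rest on the same pair of libraries.

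**Figure D5:**
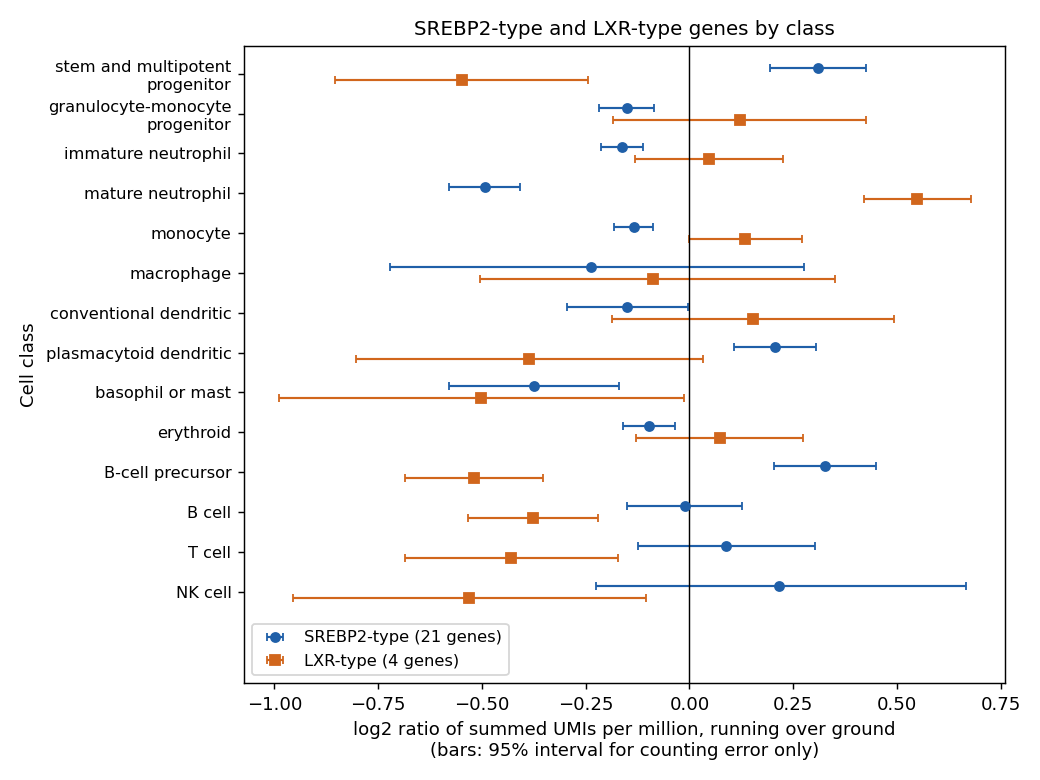
Log2 ratio (running over ground, horizontal axis) of the summed CPM of the 21 SREBP2-type genes (blue circles) and the 4 LXR-type genes (orange squares) in each class, with 95% intervals for counting error as bars. The symbols lie on opposite sides of 0 in the stem and multipotent progenitor (0.31 and -0.55), mature neutrophil (-0.49 and 0.55) and B-cell precursor classes (0.33 and -0.52).

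Related lipid genes did not all follow. Of 12 fatty acid synthesis genes, which answer mainly to SREBP1, 3 had at least 50 UMIs in mature neutrophil-like cells and none reached 1.5-fold (median -0.11), where 8.82% of 8004 measured genes were higher and 4.31% of 8004 lower. Acly, the source of cytosolic acetyl-CoA, was at 34.4 and 32 CPM there. In monocyte-like cells 10 were measured, with a median of -0.35, and 2 were at least 1.5-fold lower, where 3.46% of 10564 measured genes were lower. These were the desaturase genes Fads1, at 6.07 and 1.88 CPM (-1.69, interval -2.39 to -1.05), and Scd2, at 40.0 and 24.2 CPM (-0.72, interval -0.92 to -0.53). In B-cell precursor-like cells 1 of 10 was at least 1.5-fold higher, Fads1, at 10.4 and 19.4 CPM (0.90, interval 0.26 to 1.58), where 2.75% of 8626 measured genes were higher.

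A list of 13 genes covered the non-sterol branches and SREBP processing, with Lbr, a sterol reductase of the nuclear envelope, counted among them. None of 10 measured reached 1.5-fold in mature neutrophil-like cells (median 0.12), where 8.82% of 8004 measured genes were higher and 4.31% of 8004 lower. Lbr was at 570.1 and 431 CPM there (-0.40, interval -0.46 to -0.35). Its 6388 and 5101 UMIs exceeded those of all SREBP2-type genes together (2575 and 1933), so the sum of this list includes much sterol reductase transcript. Among 16 other genes of sterol uptake, hydrolysis and modification, Nceh1, a cholesteryl ester hydrolase, was at 5.89 and 13.7 CPM in mature neutrophil-like cells (1.22, interval 0.79 to 1.65) and was the only one of 11 measured past 1.5-fold, where 8.82% of 8004 measured genes were higher and 4.31% of 8004 lower. In monocyte-like cells 1 of 15 measured was past 1.5-fold, where 3.11% of 10564 measured genes were higher. It was the scavenger receptor gene Cd36, at 3.51 and 8.04 CPM (1.2, interval 0.72 to 1.69), with Msr1, another scavenger receptor gene, at 52.5 and 70.4 CPM (0.42, interval 0.29 to 0.56) and Cyp27a1, the sterol hydroxylase, at 15 and 20.7 CPM (0.46, interval 0.21 to 0.72).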

How the data were processed

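Bone marrow cells were profiled by droplet 3′ single-cell RNA-seq. Per the file headers, the deposited matrices hold raw counts of UMIs for each gene in each barcode, made with Cell Ranger 5.0.0, and the submitters' processing notes also name STAR and mm10. Barcodes with at least 500 UMIs, at least 250 genes and at most 10% mitochondrial UMIs were kept (253 ground and 293 running barcodes were removed), and doublets called in each library (243, or 2.73%, in ground and 100, or 1.09%, in running) were left out. Counts were scaled to 10000 per cell, and 2000 variable genes, 30 principal components, 15 neighbours and Leiden clustering at resolution 1 were used (scanpy 1.11.5, igraph 0.11.9, scikit-learn 1.9.0, Python 3.11.15). Clusters were named from markers of 22 cell types, with no annotation by the authors used here.

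UMIs were summed per class and library. Intervals are exact Poisson for levels and exact conditional binomial for ratios (scipy 1.17.1). The limit of a count of 0 is 3 counts of the total. The calculations were tested on simulated data. Any member with at least 50 UMIs in a class could be named. Full values were fixed for the 10 members with most UMIs over all cells, for the 4 largest ratios per class among members with at least 100 UMIs, and for 3 genes per other list by the same rule. Further members were named beside these to show the rest of a role. The members and lists were chosen with earlier results of these data known. Gene positions are from RefSeq GRCm38.p6, where all 32 symbols matched. Promoter sequences were not used here.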

Additional observations from a re-analysis of the deposited data

Results flagged for a closer look

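Some genes had intervals on opposite sides of 0 in different classes. The values below are differences between the log2 ratios (running over ground) of the classes with the highest and the lowest ratio, and none was tested, since each class rests on the same 2 libraries. Idi1 differed by 2.96 between B-cell precursor-like cells (1.31) and mature neutrophil-like cells (-1.65), Cyp51 by 1.92 and Fdps by 1.64 between the same classes. Between mature neutrophil-like cells and the stem and multipotent progenitor-like class, Stard4 differed by 1.66, Msmo1 by 1.41 and Pmvk by 1.31. Mylip differed in the other direction, by 1.61 between mature neutrophil-like cells (0.78) and the stem and multipotent progenitor-like class (-0.83), and Abcg1 by 1.42 between mature neutrophil-like cells (0.77) and T cell-like cells (-0.65). Npc2 differed by 0.94 between conventional dendritic-like and macrophage-like cells, and Ebp by 0.48 between mature and immature neutrophil-like cells. The summed SREBP2-type genes differed by 0.82 between B-cell precursor-like and mature neutrophil-like cells. The summed LXR-type genes differed by 1.10 between mature neutrophil-like cells and the stem and multipotent progenitor-like class, and SREBP2-type against LXR-type UMIs by 1.90 between the latter and mature neutrophil-like cells.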

How the results depend on the processing

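No paired analysis was possible because each group had 1 library, so the libraries share only the number 1. With 1 library per group, no value here has a replicate check, and depth limits the macrophage-like, NK cell-like, basophil or mast-like and T cell-like classes most. Over the alternatives run, the SREBP2-type log2 ratio lay between -0.59 and -0.45 in mature neutrophil-like, 0.19 and 0.40 in B-cell precursor-like and 0.30 and 0.40 in stem and multipotent progenitor-like cells. The LXR-type ratio lay between 0.33 and 0.63 in mature neutrophil-like cells. Of the list values, 389 kept their direction within the counting interval, 28 moved and 3 changed sign. The cause was not tested for these except where stated.

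With at least 1000 UMIs per cell, the stem and multipotent progenitor-like LXR-type ratio was -0.87 and its contrast (SREBP2-type against LXR-type) 1.27, and the plasmacytoid dendritic-like contrast was 0.11. With doublets kept, the SREBP2-type ratio was -0.086 in monocyte-like and 0.00085 in erythroid-like cells (a change of sign), the erythroid-like contrast 0.14, the B cell-like LXR-type ratio -0.19 and monocyte-like sterol handling -0.14, and no stem and multipotent progenitor-like class was named. At resolution 2, granulocyte-monocyte progenitor-like cells had -0.24 (SREBP2-type), 0.44 (LXR-type) and -0.68 (contrast), conventional dendritic-like cells 0.018 (SREBP2-type, a change of sign) and the best shared mature neutrophil-like cluster -0.80 (SREBP2-type). Centring on the median gene shifts all ratios of a class by its median. It gave -0.59 for SREBP2-type, -0.37 for non-sterol branch (the list that includes Lbr) and -0.25 for sterol handling genes in mature neutrophil-like cells. In immature ones these were -0.25, -0.013 (a change of sign) and -0.076. The mean of CPM over cells gave 0.33 (LXR-type) and -0.77 (contrast) in mature neutrophil-like cells, 0.19 (SREBP2-type), -0.22 (LXR-type), 0.41 (contrast) and 0.043 (sterol handling) in B-cell precursor-like cells, -0.32 (SREBP2-type) and -0.88 (contrast) in erythroid-like cells, and -0.13 (non-sterol branch) and -0.071 (sterol handling) in monocyte-like cells. It also changed the sign of Soat1 in erythroid-like cells (0.12). With the cluster proportions of ground, chosen after seeing the data, B-cell precursor-like cells had -0.29 (LXR-type) and 0.56 (contrast).

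Counts of SREBP2-type genes past the fold depended on the settings. The share of all genes past the fold is not given for these settings, so the counts show only how far the calls moved. With at least 200 UMIs per gene, which tests fewer genes, 2 rather than 7 were lower in mature neutrophil-like cells, 1 rather than 5 higher in B-cell precursor-like cells and 0 rather than 4 higher in stem and multipotent progenitor-like cells. At 2-fold these counts were 3, 3 and 1. With the mean of CPM over cells 3 were higher in B-cell precursor-like cells, and with at least 1000 UMIs per cell 7 were higher in stem and multipotent progenitor-like cells. Without clusters of low UMI counts no macrophage-like class was left.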

Other observations

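A pair of classes had too few cells to be compared, and their sterol genes are given as values. Among mesenchymal stromal-like cells (22 in ground and 49 in running), Insig2, which helps retain Scap, had 15 and 23 UMIs (257 and 84.4 CPM), Npc2 16 and 76 UMIs (274 and 279 CPM) and Soat1 9 and 53 UMIs (154 and 194 CPM). Among plasma cell-like cells (28 and 24), Insig1 had 13 and 32 UMIs (18.8 and 56.5 CPM), Fdps 40 and 35 UMIs (57.9 and 61.8 CPM) and Npc2 108 and 115 UMIs (156 and 203 CPM).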
